A study of Mus musculus with 30 samples.

Results

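The SOX transcription factors Sox1, Sox2, Sox3, Sox4, Sox9, Sox11 and Sox21 were followed through the first days of neural differentiation of mouse embryonic stem (ES) cells. Their probe sets were those annotated to one of these 7 genes alone on any of the 3 U74 version 2 arrays (A, B and C) made by Affymetrix. There were 26 such probe sets among the 36701 that were not controls: 1 each for Sox1 and Sox2, 5 each for Sox3, Sox4, Sox9 and Sox11, and 4 for Sox21. Of these, 20 reached the 30th percentile of mean intensity on their chip and were tested, among 25690 tested in all. The other 6 (Sox3 164825_at, Sox21 113498_at and 170960_i_at, Sox11 117084_at, Sox9 133346_at and 137618_r_at) lay between 6.37 and 144.5 in every sample and were not tested. Another 3 probe sets were tested only because they were high outside ES cells, since their ES mean lay below the threshold: Sox3 92264_at, Sox21 108917_at and Sox9 163058_at. Each value is a linear intensity of 1 probe set on 1 array, and changes are read between samples within a probe set. Intensities of different probe sets were set side by side only to call sets bright or dim and to choose the set that stands for a gene. They were also added up in marker sums.

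All samples came from the Sox1-GFP line of 129-derived ES cells, in which green fluorescent protein reports Sox1; in this reporter, as the line is known, the fluorescent protein takes the place of the coding sequence of one Sox1 allele. The line was differentiated as floating aggregates without serum (SFEB culture) for 1 to 5 days. The 10 samples were Sox1-positive cells sorted on day 3, day 4 and day 5 (1 sample each), the E-cadherin-negative and E-cadherin-positive sorts of day 2, the Sox1-negative sort of day 3, day 1 aggregates with no sort label, and 3 samples of ES cells sorted for E-cadherin. Hence the Sox1-positive group of 3 holds 3 days of culture rather than repeats of 1 day. For the ES samples the labels do not state separate cultures, so a p-value here reflects only how far these samples spread, and that spread may be technical. Every sample went onto all 3 chips. Precision is limited by how few arrays there are.

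SOX proteins bind DNA through a high-mobility-group domain and usually act with a partner factor, such as a POU protein. The SoxB1 class (Sox1, Sox2, Sox3) holds neural progenitors in their undifferentiated state, and Sox2 with Oct4 (the product of Pou5f1) also maintains pluripotency. Sox21, of the SoxB2 class, is a repressor that, as known from the chick, opposes SoxB1 activity and favours neuronal differentiation. The SoxC proteins Sox4 and Sox11 act in committed neural precursors and young neurons, and Sox9, of the SoxE class, is known in neural stem cells, glia, neural crest and cartilage.

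RefSeq promoter sequences (GRCm38.p6) were found for 5 of the 7 genes. The 250 bases before the start are given for Sox2, whose level did not pass the test, and for Sox21, Sox11 and Sox4, which rose, so that genes that passed and 1 that did not stand side by side. They read 5′ to 3′ on the gene's strand, and capitals mark matches to the searched motifs: CCAAT (the CCAAT box), GGGCGG (the GC box), ATGCAAAT (the octamer), TATAAA (the TATA box), and ACAAAG and ACAATG (SOX core sites), each on both strands.
Sox2 promoter: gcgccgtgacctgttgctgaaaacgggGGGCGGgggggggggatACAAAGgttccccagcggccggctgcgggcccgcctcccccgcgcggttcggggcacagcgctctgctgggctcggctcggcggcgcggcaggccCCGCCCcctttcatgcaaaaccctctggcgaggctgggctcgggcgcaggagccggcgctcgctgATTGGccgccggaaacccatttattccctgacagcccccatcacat
Sox21 promoter: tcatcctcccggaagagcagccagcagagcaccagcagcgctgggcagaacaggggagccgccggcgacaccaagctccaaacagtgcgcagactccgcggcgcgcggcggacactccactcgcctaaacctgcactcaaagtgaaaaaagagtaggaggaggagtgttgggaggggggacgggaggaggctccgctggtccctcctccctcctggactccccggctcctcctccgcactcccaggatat
Sox11 promoter: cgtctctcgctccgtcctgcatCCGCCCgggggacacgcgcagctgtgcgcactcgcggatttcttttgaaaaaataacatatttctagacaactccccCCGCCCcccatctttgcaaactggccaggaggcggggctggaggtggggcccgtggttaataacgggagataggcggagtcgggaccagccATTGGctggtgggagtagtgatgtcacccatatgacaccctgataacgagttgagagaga
Sox4 promoter: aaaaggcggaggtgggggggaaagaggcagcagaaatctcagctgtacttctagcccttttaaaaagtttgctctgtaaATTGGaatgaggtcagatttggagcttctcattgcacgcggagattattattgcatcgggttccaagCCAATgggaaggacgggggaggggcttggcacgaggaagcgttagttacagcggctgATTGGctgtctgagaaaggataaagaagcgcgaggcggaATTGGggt
These lie at chr3:34649745-34649994 on the plus strand (Sox2), and on the minus strand at chr14:118237031-118237280 (Sox21), chr12:27342719-27342968 (Sox11) and chr13:28953700-28953949 (Sox4). The Sox4 promoter held 4 CCAAT boxes, which began at -171, -104, -47 and -8 from the start. Sox11 and Sox2 held 1 each, at -60 and -46, and both also held 2 GC boxes. A CCAAT box occurs in 37.4% and a GC box in 35.7% of 32851 mouse promoters of 300 bases. One SOX core site, ACAAAG, began at -206 in the Sox2 promoter, and 18.7% of promoters hold it. None of the searched letters occurred in the Sox21 window, and no TATA box (13.6% of promoters) or ACAATG (12.6%) occurred in the 4 windows. The Sox1 promoter, not shown, held the octamer at 19 bases after the start, a motif found in 1.74% of promoters. A match is only a match of letters and no matches overlapped.

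In Sox1-positive cells of days 3 to 5, 6 of the 7 genes had at least 1 probe set above ES cells, and 14 of the 20 tested probe sets rose while 0 fell (limma with Benjamini-Hochberg adjustment over all chips). Leaving out Sox1, the gene of the gate, 5 of 6 genes and 13 of 19 probe sets rose. Averaged over a gene's tested probe sets, the log2 change was 3.28 for Sox11, 2.79 for Sox21, 2.59 for Sox3, 1.33 for Sox9 and 1.23 for Sox4, while Sox2 did not pass the test. Of these 14, 3 had an ES mean below the filter and passed it only through their levels in other samples. Among all 25690 probe sets 1467 were called higher (5.71%) and 1243 lower. The median change of the 20 SOX probe sets was 2.42 on the log2 scale, against -0.003 over all probe sets tested. As RNA of whole sorted samples was measured, more cells with a transcript and more transcript per cell cannot be told apart.

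**Figure D1:**
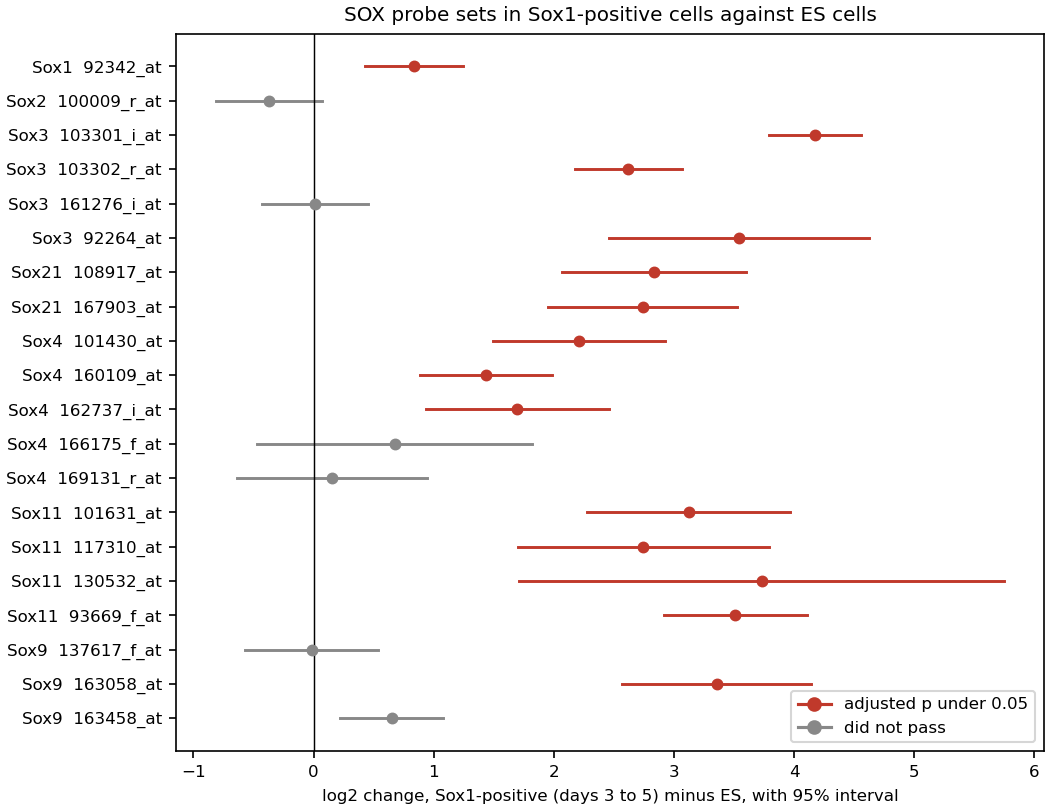
Log2 change (horizontal axis) of each of the 20 tested SOX probe sets in the 3 Sox1-positive samples against the 3 ES samples, as points with 95% intervals from limma; red marks an adjusted p under 0.05. The 14 red intervals all lie to the right of 0, and Sox2 100009_r_at lies to its left at -0.37 with an interval that crosses 0.

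Sox1 is the gene of the reporter and the gate, so its level checks the labels and is no finding. Sox1 92342_at read 308, 310 and 252 in Sox1-positive cells of days 3, 4 and 5, against 173, 156 and 138 in the 3 ES samples. The groups did not overlap, and the change was 0.83 on the log2 scale (95% interval 0.42 to 1.24, adjusted p = 0.0229, limma). Yet the other aggregate samples came close: 241 in day 3 Sox1-negative cells, 251 in day 2 E-cadherin-negative cells, 253 in day 2 E-cadherin-positive cells and 152 on day 1. Between the sorts of day 3 the difference was 0.34, so this dim probe set differed more between aggregates after day 1 and ES cells than between the sorts. Its call against ES cells ended without day 3, without day 4, without ES 2 or without ES 3 (adjusted p up to 0.0954).

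Sox2 had high signal in every sample and differed least between them among the SoxB1 genes' main probe sets. Sox2 100009_r_at read 4972, 4128 and 5386 in Sox1-positive cells of days 3, 4 and 5, against 6956, 5333 and 6499 in ES cells. These groups overlapped, and the change was -0.37 (95% interval -0.81 to 0.07, adjusted p = 0.279, limma). The lowest sample was day 2 E-cadherin-negative at 3746, while day 3 Sox1-negative cells read 6620, day 2 E-cadherin-positive cells 6278 and day 1 aggregates 5538. Over all 10 samples the range was 0.89 on the log2 scale.

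Sox3 behaved otherwise, with 3 of its 4 tested probe sets higher in Sox1-positive cells. Sox3 103301_i_at read 5616, 5891 and 5986 on days 3, 4 and 5 in Sox1-positive cells, against 281, 303 and 343 in ES cells, a change of 4.17 (95% interval 3.79 to 4.55, adjusted p = 6.3e-05, limma). The 3 days lay close together, and every ES sample lay far below them. Sox3 103302_r_at read 4838, 3621 and 4794 in Sox1-positive cells and 611, 730 and 764 in ES cells, a change of 2.62 (adjusted p = 0.000335). Sox3 92264_at read 1086, 596 and 1218 in Sox1-positive cells and 38.1, 158 and 39.8 in ES cells, a change of 3.54 (adjusted p = 0.00372). The fourth, Sox3 161276_i_at, read between 69.2 and 104 in all 10 samples, and its change was 0.01 (adjusted p = 0.981). It thus disagrees with the other 3 probe sets, and its sign turned under other scalings and when single samples were left out.

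Outside the Sox1-positive gate, 1 Sox3 probe set was graded between ES and Sox1-positive cells, and the other tested sets did so in part or not at all. Sox3 103301_i_at read 479 on day 1, 569 in day 2 E-cadherin-positive cells, 1149 in day 3 Sox1-negative cells and 2937 in day 2 E-cadherin-negative cells. All of these lay above the 3 ES samples and below the 3 Sox1-positive samples. The day 2 E-cadherin-negative value was 50.4% of the Sox1-positive mean, and the day 3 Sox1-negative value 19.7%. On 103302_r_at the day 2 E-cadherin-negative value, 3771, lay above that of day 4 Sox1-positive cells, 3621. On 92264_at day 1 read 36.7, below every ES sample. Day 2 E-cadherin-positive and day 3 Sox1-negative cells read 253 and 256 on that set. Sox3 161276_i_at showed no gradation.

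Sox21, the SoxB2 gene, rose in both of its tested probe sets. Sox21 167903_at read 3303, 3337 and 2590 in Sox1-positive cells of days 3, 4 and 5, against 670, 414 and 315 in ES cells, a change of 2.74 (95% interval 1.95 to 3.52, adjusted p = 0.00396, limma). Sox21 108917_at read 517, 310 and 200 in Sox1-positive cells, against 39.1, 31.4 and 23.3 in ES cells, a change of 2.84 (95% interval 2.07 to 3.60, adjusted p = 0.00255). In both sets the lowest Sox1-positive sample lay above the highest ES sample, as in 15.4% of all tested probe sets. The 2 probe sets parted in the other aggregates. Day 2 E-cadherin-negative cells read 1629 on 167903_at, 53.0% of the Sox1-positive mean, but 39.6 on 108917_at, 11.6% of it and inside the range of day 1 and day 2 E-cadherin-positive cells (37.4 and 68.2). Day 3 Sox1-negative cells were low on both, at 203 and 23.6. On 108917_at every aggregate sample outside the gate lay below the filter threshold of 117, so differences among them are near the floor.

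Sox11, a SoxC gene of young neurons, rose in all 4 of its tested probe sets. Sox11 93669_f_at read 2322, 2920 and 1675 in Sox1-positive cells of days 3, 4 and 5, against 147, 236 and 174 in ES cells, a change of 3.51 (95% interval 2.92 to 4.11, adjusted p = 0.000333, limma). Sox11 101631_at read 7935, 8833 and 8574 in Sox1-positive cells and 489, 1371 and 1293 in ES cells, a change of 3.12 (adjusted p = 0.00231). In every one of the 4 sets the Sox1-positive samples lay above all ES samples, as in 15.4% of all tested probe sets. Sox11 117310_at read 5926, 8361 and 12389 in Sox1-positive cells and 616, 1775 and 1791 in ES cells, a change of 2.75 (adjusted p = 0.00937). Sox11 130532_at read 15250, 27336 and 31148 in Sox1-positive cells and 402, 2916 and 4525 in ES cells, a change of 3.73 with a wide interval of 1.71 to 5.75 (adjusted p = 0.0368). Its ES samples spanned 3.44 on the log2 scale, more than 99.9% of tested probe sets, because ES 1 was far below the others, and its call ended in 7 of 16 alternatives (adjusted p up to 0.119), among them leaving out ES 2 or any 1 of the Sox1-positive days.

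Sox4, the other SoxC gene, rose in 3 of its 5 probe sets and by less. Sox4 101430_at read 3201, 2350 and 2770 in Sox1-positive cells, against 344, 764 and 748 in ES cells, a change of 2.21 (95% interval 1.49 to 2.93, adjusted p = 0.00477, limma). Sox4 162737_i_at, its brightest set, read 16436, 15907 and 16222 in Sox1-positive cells and 2863, 6248 and 6902 in ES cells, a change of 1.70 (adjusted p = 0.0176). Sox4 160109_at read 1834, 2059 and 1446 in Sox1-positive cells and 521, 856 and 590 in ES cells, a change of 1.44 (adjusted p = 0.00894). In these 3 all Sox1-positive samples lay above all ES samples, as in 15.4% of all tested probe sets. The call of 162737_i_at ended without day 3, without day 4, or without ES 3 and day 5 together (adjusted p up to 0.0632). Sox4 166175_f_at (0.67, adjusted p = 0.462) and Sox4 169131_r_at (0.15, adjusted p = 0.836) did not pass, and their groups overlapped: 166175_f_at read 8881, 4760 and 4643 in Sox1-positive cells and 4581, 1866 and 5618 in ES cells. An f in a probe set name marks a set that may bind several related sequences, and an r one that failed some design rules. The same limits hold for Sox11 93669_f_at, Sox9 137617_f_at, Sox3 103302_r_at and Sox2 100009_r_at, the only Sox2 set.

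The probe sets of Sox9 disagreed. Sox9 163058_at, a dim set, read 352, 305 and 596 in Sox1-positive cells of days 3, 4 and 5, against 45.2, 20.2 and 14.3 in ES cells, a change of 3.36 (95% interval 2.57 to 4.14, adjusted p = 0.00144, limma). Sox9 163458_at read 482, 507 and 606 in Sox1-positive cells and 347, 303 and 346 in ES cells, a change of 0.65 that did not pass (adjusted p = 0.0666, or 0.0354 with the filter at the 60th percentile) although the groups did not overlap. Sox9 137617_f_at, the brightest, read 3015, 3203 and 3335 in Sox1-positive cells and 3604, 3095 and 2975 in ES cells, with overlapping groups and a change of -0.01 (adjusted p = 0.981). Averaged over its 3 tested sets, Sox9 changed by 1.33 (adjusted p = 0.00699, limma), so whether Sox9 is called depends on which probe sets stand for it. That average includes 163058_at, whose ES mean of 26.6 lay below the filter threshold of 117. This set was tested only because it was high outside ES cells, so its call and the average are no independent support. On 163058_at all 4 other aggregate samples also lay above every ES sample, at 144 on day 1, 90.2 in day 2 E-cadherin-positive cells, 149 in day 3 Sox1-negative cells and 432 in day 2 E-cadherin-negative cells.

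**Figure D2:**
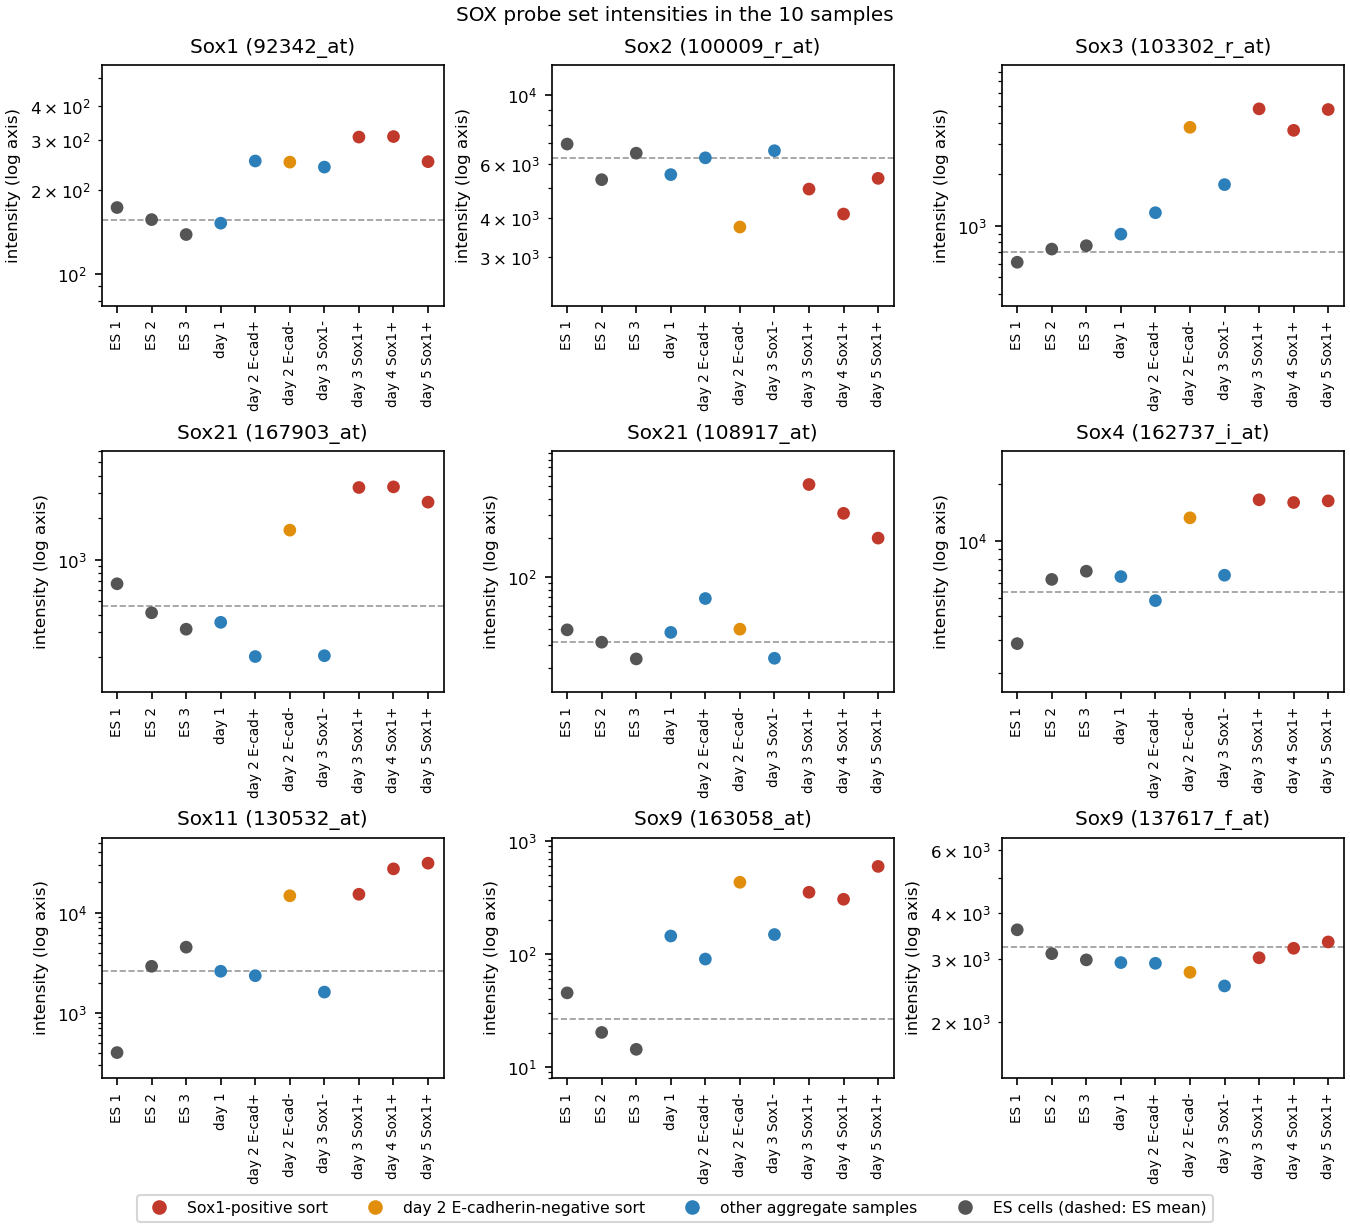
Intensity (vertical axis, log scale) of 9 SOX probe sets in the 10 samples, ES samples first and then the days of culture, with the ES mean dashed. Sox3, Sox21, Sox4, Sox11 and Sox9 163058_at are highest in a Sox1-positive sample (red), and day 2 E-cadherin-negative cells (orange) stand well above ES cells except on Sox21 108917_at, while Sox2 and Sox9 137617_f_at show no such step.

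In 15 of the 20 probe sets all 3 Sox1-positive samples exceeded all 3 ES samples, which 15.4% of all tested probe sets did. A mean over the probe sets of each gene gave 6 of 7 genes called, where 1009 of 12941 genes were called higher. With 1 probe set per gene (that with the highest mean log2 value) 5 were called, where 828 of 12934 genes rose (6.40%). Actin 3′ to 5′ ratios on the U74Av2 chip, a sign of RNA quality, were 1.34 on day 5 and 1.70 in ES 3, with the other Sox1-positive and ES samples between 0.993 and 1.15. Day 2 E-cadherin-negative cells had 1.33, against 0.939 to 1.13 in day 1, day 2 E-cadherin-positive and day 3 Sox1-negative samples. What part RNA quality has in the SOX values was not tested. Without ES 3 and day 5 together, a choice made after the data were seen, 11 of the 20 SOX probe sets rose and 1055 probe sets of all were called. Over all probe sets the count of calls, 2710, was 1290 without day 4, 1233 without ES 2 and 1681 without ES 3, while the SOX count stayed at 11 or more.

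The other aggregate samples (day 1, both sorts of day 2 and day 3 Sox1-negative) were next compared as 4 samples with the ES cells. No SOX probe set passed in either direction by limma (6 of 20 had an unadjusted p under 0.05, all higher, against 10.3% of all tested in either direction), and 17 of all probe sets did (0.0662%). In 6 of the 20 SOX probe sets all 4 samples lay above every ES sample, as in 5.51% of all tested. The group was uneven, because the day 2 E-cadherin-negative sample stood apart from the other 3 for most SOX genes.

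In that sample all 14 probe sets called above exceeded every ES sample, and 8 of the 14 were below all 3 Sox1-positive samples. This did not set the SOX genes apart, since among all 1467 probe sets called higher 94.2% exceeded every ES sample there and 67.3% were below all 3 Sox1-positive samples. Sox11 101631_at read 8601 there, against 2090 in day 2 E-cadherin-positive cells, and Sox4 101430_at read 2473 against 574. Relative to the mean of the Sox1-positive cells, the called sets of Sox11 stood between 58.7% and 102%, those of Sox4 between 81.6% and 98.1% and those of Sox3 between 44.0% and 85.4%. Sox9 163058_at stood at 103% and Sox1 at 86.5%. The sets of Sox21, at 11.6% and 53.0%, were given above. A direct test of this lone sample against the Sox1-positive cells, added after the data were seen, called 0 of 25690 probe sets by limma (0%, with 1701 at an unadjusted p under 0.05). The SOX probe sets with the lowest adjusted p were Sox21 108917_at (-2.59, 95% interval -3.86 to -1.32, adjusted p = 0.591) and Sox3 103301_i_at (-0.98, adjusted p = 0.604). Such a test does not show that the levels were alike: for Sox11 130532_at the interval ran from -2.05 to 0.71.

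**Figure D3:**
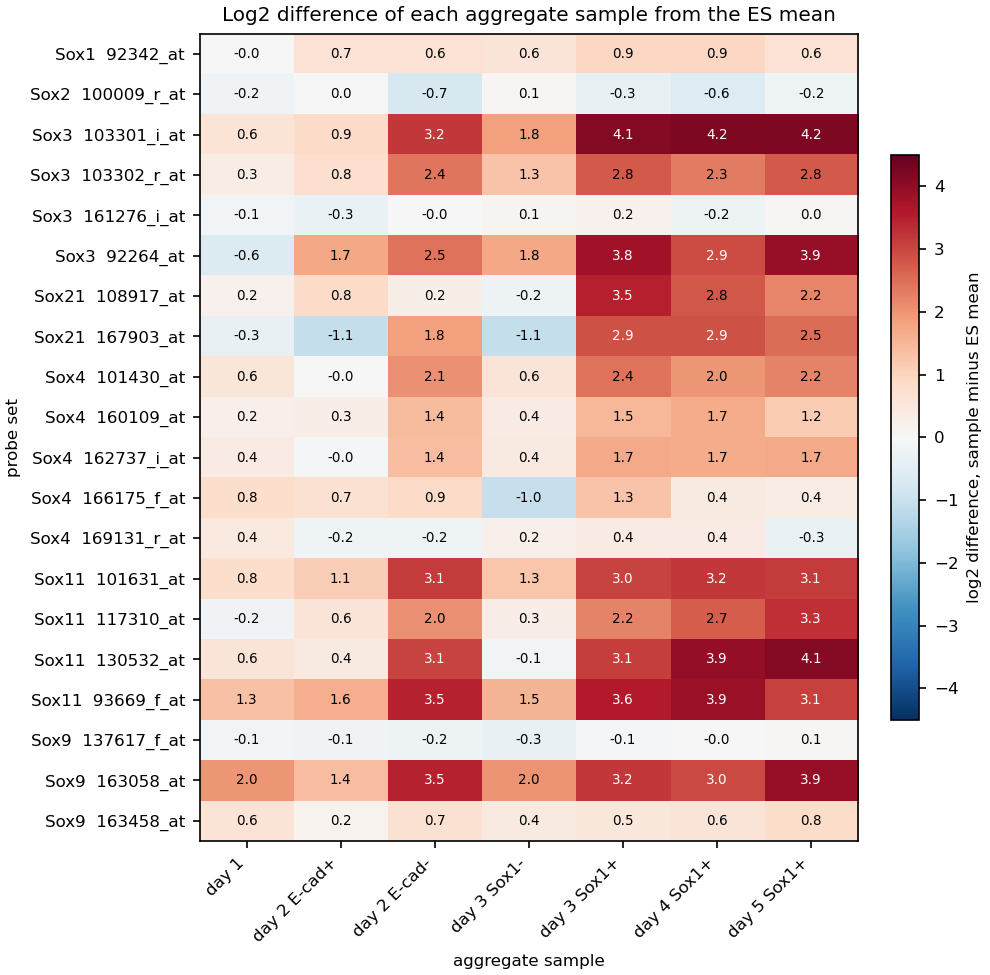
Log2 difference of each of the 7 aggregate samples (columns, by day) from the ES mean for the 20 tested SOX probe sets (rows), with the value written in each cell. The day 2 E-cadherin-negative column lies above the ES mean for all 14 sets called higher in Sox1-positive than in ES cells. It lies below all 3 Sox1-positive columns for 8 of these sets. They include Sox3 103301_i_at (3.2 in that column) and 92264_at (2.5), and Sox21 167903_at (1.8) and 108917_at (0.2). The others of the 8 are sets of Sox1, Sox4 and Sox11. Sox3 103302_r_at (2.4) and Sox9 163058_at (3.5) lie within the Sox1-positive range.

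Tested 1 sample at a time against ES cells, with the spread taken from the ES samples, 0 SOX probe sets were called on day 1 (0% of all tested), 0 in day 2 E-cadherin-positive cells (0%) and 0 in day 3 Sox1-negative cells (0%). At an unadjusted p under 0.05 these samples had 2, 7 and 5 of the 20 SOX probe sets, all higher, against 6.33%, 8.12% and 6.65% of all tested in either direction. Day 2 E-cadherin-negative cells had 1 call, Sox3 103301_i_at (3.19, adjusted p = 0.0446, limma), where 0.0195% of all probe sets were called higher. Sox1-positive cells had 5 calls on day 3 (0.553% of all), 5 on day 4 (0.868%) and 7 on day 5 (2.00%). The 5 of days 3 and 4 were Sox3 103301_i_at and 103302_r_at, Sox21 108917_at, Sox11 93669_f_at and Sox9 163058_at, and day 5 added Sox3 92264_at and Sox11 101631_at. These counts moved with the ES samples, and so did the calls over all probe sets. For the 3 Sox1-positive days and day 2 E-cadherin-negative cells, calls over all probe sets fell without ES 2 and rose without ES 1. Without ES 2 no SOX call was left on day 3 or day 4 or in day 2 E-cadherin-negative cells (0 each), and 4 were left on day 5. Without ES 1 they were 11 on each of the 3 days, 6 in day 2 E-cadherin-negative cells and 1 in day 3 Sox1-negative cells.

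Set against the 4 other aggregate samples, Sox1-positive cells had 1 SOX probe set higher, Sox21 108917_at, where 0.580% of all probe sets were called higher. It read 517, 310 and 200 in Sox1-positive cells against 23.6 to 68.2 in the others, a change of 2.58 (95% interval 1.79 to 3.37, adjusted p = 0.0233, limma). This set passed the filter only through the Sox1-positive samples, as its mean was 42.2 in the other aggregates and 31.3 in ES cells. Next came Sox3 103301_i_at (2.55, adjusted p = 0.0529), Sox21 167903_at (2.90, adjusted p = 0.0728) and Sox11 117310_at (2.05, adjusted p = 0.0734). Altogether 13 of 20 had an unadjusted p under 0.05, all higher, against 19.8% of all tested in either direction. In 8 of the 20 all 3 Sox1-positive samples lay above the 4 others, as in 8.99% of all tested; Sox9 137617_f_at is among these 8 but not among the 13. With the day 2 E-cadherin-negative sample left out, 13 SOX probe sets were higher where 4.73% of all were. These were 3 of Sox3, both of Sox21, 4 of Sox11, 3 of Sox4 and Sox9 163058_at; Sox11 130532_at then changed by 3.44 (adjusted p = 0.00327) and Sox21 167903_at by 3.56 (adjusted p = 0.00167). Leaving out any other 1 of the 7 samples gave 0 calls among the SOX genes. Calls over all probe sets then also fell, from 371 to between 4 and 83.

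The sorts of day 2 and day 3 had 1 sample on each side and were described without a test. On day 2, 11 of 20 SOX probe sets were higher by 1 or more on the log2 scale in E-cadherin-negative than in E-cadherin-positive cells, where 7.71% of all tested probe sets were, and 0 were lower by as much. On day 3, 14 of 20 were higher by 1 or more in Sox1-positive than in Sox1-negative cells (7.60% of all), again with 0 lower. Sox21 167903_at had the widest gap of both days, 2.93 on day 2 and 3.92 on day 3. For Sox11 130532_at the gaps were 2.64 and 3.23. Sox21 108917_at parted the days, at -0.60 on day 2 and 3.75 on day 3, as did Sox4 166175_f_at at 0.17 and 2.31. For 108917_at both day 2 values lay below the filter threshold of 117, near the floor. Sox2 differed the other way, by -0.74 on day 2 and -0.41 on day 3.

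**Figure D4:**
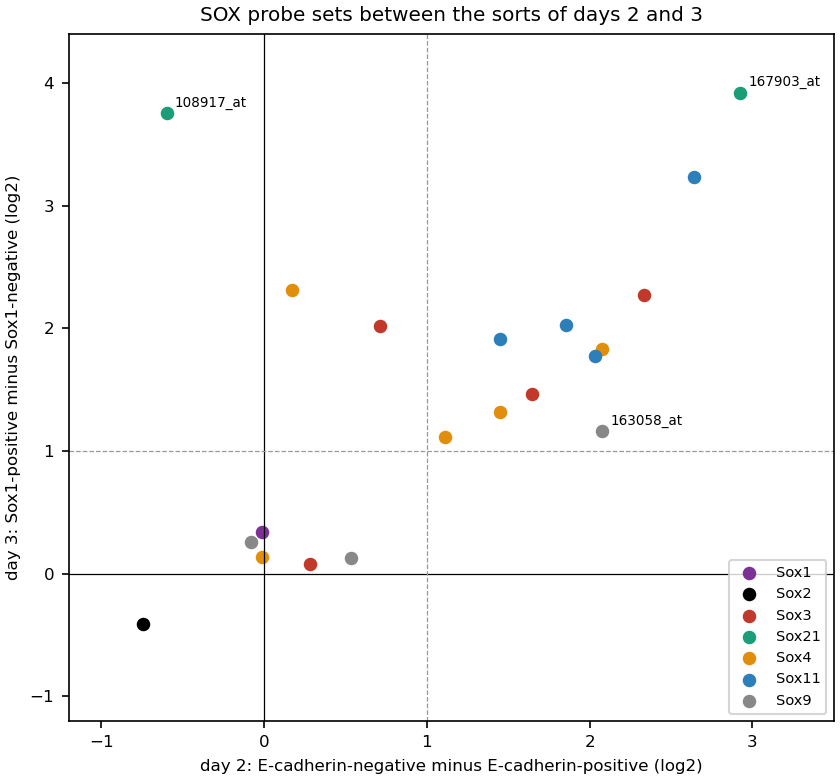
Log2 difference between the day 3 sorts (Sox1-positive minus Sox1-negative, vertical axis) against that between the day 2 sorts (E-cadherin-negative minus E-cadherin-positive, horizontal axis) for the 20 tested SOX probe sets, coloured by gene, with dashed lines at 1. All Sox11 sets, most Sox4 sets, Sox3 103301_i_at and 103302_r_at, Sox21 167903_at and Sox9 163058_at lie above 1 on both axes. Sox21 108917_at, Sox4 166175_f_at and Sox3 92264_at lie above 1 on day 3 alone.

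Between days 3 and 5 the slope on day among Sox1-positive samples passed for 0 SOX probe sets and 0 of 25690 in all by limma (0%, with 2105 at an unadjusted p under 0.05). The steepest SOX slope was that of Sox21 108917_at, -0.65 per day on the log2 scale (95% interval -1.07 to -0.24, adjusted p = 0.452). Sox11 117310_at had a slope of 0.53 (adjusted p = 0.793) and Sox3 103301_i_at one of 0.05 (95% interval -0.30 to 0.39).

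Beyond the 7 genes, 11 of 13 further SOX genes were named on the chips and 10 were tested, with 1 probe set each. Of these 2 rose in Sox1-positive cells, 1 fell and 7 did not pass, with a median change of 0.13, against -0.01 over 12934 genes, of which 828 rose (6.40%) and 798 fell (6.17%). Sox6, a SoxD gene, averaged 325 ± 79.2 in Sox1-positive cells and 105 ± 27.7 in ES cells (SD, n = 3 each), a rise of 1.49 (adjusted p = 0.0120, limma). Sox13, also SoxD, averaged 2086 ± 214 in Sox1-positive cells and 1157 ± 140 in ES cells, a rise of 0.84 (adjusted p = 0.0225). Sox15, a gene of the SoxG class expressed in ES cells, averaged 109 ± 20.9 in Sox1-positive cells and 270 ± 31.4 in ES cells, and fell by 1.20 (adjusted p = 0.00769). Sox12, the third SoxC gene, did not pass (0.26, adjusted p = 0.535).

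Partners and linked genes of the SOX proteins were described from lists. Of 5 tested POU genes 2 rose and 1 fell. Pou3f3 and Pou3f4, class III POU genes of the neural tube, rose by 4.65 and 3.18 (adjusted p = 0.00448 and 0.0112, limma), and Pou5f1, which encodes Oct4, fell by 2.26 (adjusted p = 0.0351). Among 7 tested ES cell targets of Sox2 and Oct4, 5 fell and 0 rose (median -2.26). The 2 largest falls were of Fbxo15, a stem cell F-box gene, at -5.20, and Utf1, a chromatin factor of undifferentiated cells, at -3.87, in cells where Sox2 itself did not pass. Of 10 tested neural genes linked to SoxB1 proteins, 6 rose and 0 fell (median 1.37), led by Cdh2, which encodes N-cadherin, at 3.42 and Fabp7, a radial glia gene, at 3.19. Of 7 genes linked to SoxC proteins, 3 rose and 0 fell (median 1.70, the value of Tead2). Elavl4, an RNA-binding protein of neurons, rose by 2.37 and Map2, which binds microtubules in dendrites, by 2.06. The third was Tead2, a transcription factor of the Hippo pathway, at 1.70. The neuronal genes Tubb3, Dcx, Elavl3 and Stmn2 did not pass. None of 4 tested proneural genes passed (median 0.59), and of 5 tested genes linked to Sox9 in cartilage and glia 1 rose, Sox6 (median 1.12).

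Marker genes of other cell types were measured beside these. Summed over 6 neural progenitor markers, 5 of which rose, intensity ran from 7250 to 9541 in Sox1-positive cells, from 2531 to 6830 in the other aggregates (the highest in day 2 E-cadherin-negative cells) and from 2673 to 2986 in ES cells. The 7 pluripotency markers, 6 of which fell, summed to 1491 to 6744 in Sox1-positive cells, 8455 to 25643 in the other aggregates and 32175 to 41405 in ES cells. For 6 neuronal markers, of which 2 rose, the sums were 6780 to 13356 in Sox1-positive cells, 5453 to 10513 in the other aggregates and 7146 to 7631 in ES cells. Of 7 neural crest markers 0 rose and 2 fell, and of 6 surface ectoderm markers 0 rose and 3 fell. The 2 mesoderm, 8 endoderm, 5 fibroblast and 2 primed epiblast markers that were tested gave 0 calls. The sums over neural crest markers were 2786 to 3328 in Sox1-positive cells, 3860 to 4973 in the other aggregates and 3549 to 4490 in ES cells. Endoderm markers summed to 1021 to 2228 in Sox1-positive cells, 967 to 1343 in the other aggregates and 788 to 1206 in ES cells. The highest of these sums was that of day 5, when Foxa2, an endoderm and floor plate factor, read 1315, against 55.3 on day 3 and 51.5 on day 4. Mesoderm markers summed to 245 to 304 in Sox1-positive cells, 290 to 402 in the other aggregates and 204 to 304 in ES cells. No listed marker was at 0 in any sample, and what part these cell types have in the SOX values was not tested.

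The genes whose pattern over the 10 samples was most like that of each SOX gene's probe set of highest mean log2 value were found by Pearson correlation of log2 values, among genes that ranged over 1 or more on that scale (7689 of them for Sox3). The 10 samples come from 1 line and the genes of a chip share an array within each sample, so r is a description. Sox3 was followed most closely by Ctnnd2, a neuronal catenin (r = 0.981), Pafah1b3 and Cyp46a1, and Sox21 by Macroh2a2, a variant histone (r = 0.989), Zfp579 and Spg20. Sox4 was followed by Itm2c (r = 0.984), Tubb4a, a neural beta-tubulin, and Panx1. Sox11 was followed by Bach2, a transcription factor (r = 0.987), Adgrv1 and Satb1, a chromatin organiser. Sox1 was followed by Zkscan17 (r = 0.961), Armcx3 and Rala, Sox2 by Dsp, which encodes desmoplakin (r = 0.935), Rsbn1l and Ybx3, and Sox9 137617_f_at by Vdac1 (r = 0.919), Csad and Slc35a5. Sox2 and Sox9 137617_f_at themselves ranged over only 0.89 and 0.51, less than the 1 asked of the other genes, so their matches follow small differences. Among the SOX genes, Sox4 and Sox11 were alike at r = 0.970, Sox3 and Sox4 at 0.909, and Sox2 ran against Sox11 at -0.763.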

How the data were processed

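RNA of 10 samples was hybridised to 3 chips each, labelled with biotin per the labels' protocols. The authors deposited an intensity (linear scale) for every probe set of every array, and these values had been scaled before deposit: 2% trimmed means were 500.1 to 500.3 and medians 176 to 277. For software and background correction the entry is: not given in the sources used here. Gene names came from the platform's probe tables, where 29131 probe sets name 1 gene, 724 several and 6846 none, and 198 controls of 36899 probe sets were left out. A pseudocount of 16 was added before taking log2, so changes of dim genes are understated. The filter asked for a mean over the 10 samples at or above the 30th percentile of the chip (78.6, 117 and 102).

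Group comparisons used limma 3.58.1 in R 4.3.3 (lmFit and eBayes on each chip), and p-values were adjusted by Benjamini-Hochberg across all chips at once, with a threshold of 0.05. Lone samples were tested in a fit of 8 groups, and sort pairs were not tested. The code was tested on simulated data. Tables and figures were made with Python 3.11.15, pandas 2.3.3 and matplotlib 3.10.9.

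The SOX genes and the lists (other SOX genes, POU partners, Sox2 and Oct4 targets, SoxB1-linked, proneural, SoxC-linked and Sox9-linked genes, and cell type markers) were chosen with earlier results of these data known. Named were all SOX probe sets, the 3 genes most like each, and up to 2 called rises and 2 called falls from each list; Sox12 and Tead2 were added after their values were seen. A gene's probe set of highest mean log2 value stood for it in the lists. Alternatives were a pseudocount of 1 or 64, a filter at the 60th percentile or none, quantile normalization, 75th percentile scaling, a mean-variance trend, adjustment within each chip, the mean over a gene's probe sets, 1 fit of 3 groups, leaving out each sample, and a threshold of 2 for the sorts. Leaving out ES 3 and day 5 together was added after the data were seen.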

Additional observations from a re-analysis of the deposited data

How the results depend on the processing

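The rise of SOX genes in Sox1-positive over ES cells covered 11 to 14 probe sets in every alternative (16 were tested with the filter at the 60th percentile and 26 with none), and 11 to 14 when 1 sample was left out. All probe sets called numbered 2710, between 1233 and 2162 without 1 sample, and 1055 without ES 3 and day 5 together, where fewer samples were tested. Against the other aggregates the count of 1 SOX probe set became 3 with a pseudocount of 64, 3 with the filter at the 60th percentile, 4 with a mean-variance trend, 2 with adjustment within each chip, and 0 to 13 without 1 sample. Calls over all probe sets, 371, ran from 4 to 2227 without 1 sample. Calls of lone samples were the least stable. For day 2 E-cadherin-negative cells (1) they were 0 after quantile normalization, 75th percentile scaling, a pseudocount of 1 or no filter, 4 with a pseudocount of 64 or the stricter filter, 3 with a trend or adjustment within each chip, and 0 to 6 without 1 ES sample. Day 3 Sox1-negative cells had 0 to 1 without 1 ES sample. Day 3 Sox1-positive cells (5) had 8 with a pseudocount of 64, the stricter filter or adjustment within each chip, 2 with no filter, 9 with a trend and 0 to 11 without 1 ES sample. Day 4 (5) had 9 with a pseudocount of 64, 8 with the stricter filter, 2 with no filter and 0 to 11 without 1 ES sample, and day 5 (7) had 4 with no filter and 4 to 11 without 1 ES sample. The sorts gave 6 probe sets on day 2 and 7 on day 3 at a threshold of 2. The cause of these moves was not tested. Sox9 137617_f_at, near 0, came to 0.0031 with 75th percentile scaling and ran from -0.069 to 0.068 without 1 sample. Sox3 161276_i_at turned to -0.044 after quantile normalization, -0.014 with 75th percentile scaling and -0.035 without ES 3 and day 5 together, and ran from -0.085 to 0.13 without 1 sample. Sox4 169131_r_at ran from -0.094 to 0.38 without 1 sample. No paired analysis was possible, because each aggregate condition had 1 sample and the labels link no aggregate sample to an ES sample.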

Other observations

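The 3 ES samples differed among themselves in several SOX probe sets, of the SoxC genes and of others. ES 1 was the lowest of the 3 in 7 of 9 tested Sox4 and Sox11 probe sets, while it was the lowest in 33.9% of all 25690 tested probe sets. Sox11 101631_at read 489, 1371 and 1293 in ES 1, ES 2 and ES 3, a range of 1.46 on the log2 scale, wider than that of 90.6% of tested probe sets. Sox4 101430_at read 344, 764 and 748, a range of 1.12, wider than that of 83.5%. Not all SoxC sets were so wide: Sox11 93669_f_at and Sox4 160109_at ranged more widely than 58.3% and 64.1%. Outside SoxC, Sox3 92264_at ranged over 1.68, wider than 93.4%, though its ES mean lay below the filter. Sox21 167903_at (1.05) was wider than 81.5%. Sox3 103301_i_at (0.28) and Sox2 100009_r_at (0.38) had narrower ranges than most probe sets. Without ES 1 more probe sets were called in each Sox1-positive sample and in day 2 E-cadherin-negative cells. This held among the SOX genes and over all probe sets alike.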
